A study of Mus musculus with 24 samples.

Results

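The miR-10, miR-99/100 and miR-125 families are sets of closely related microRNAs (miRNAs), and the 7 members followed here are mmu-miR-10a-5p, mmu-miR-10b-5p, mmu-miR-99a-5p, mmu-miR-99b-5p, mmu-miR-100-5p, mmu-miR-125a-5p and mmu-miR-125b-5p. They were taken by name as the products of the 5′ arm (5p) of their hairpins, and are 7 of the 1978 mature mouse miRNAs in the count table. Small RNA was sequenced from pachytene/diplotene spermatocytes (SP), which are in meiotic prophase, and from round spermatids (RS), the haploid cells that follow meiosis. The males were Ago413+/+, Ago413+/- or Ago413-/-, and each of the 6 groups holds 4 of the 24 libraries. The Ago413 deletion takes out Ago1 and parts of Ago3 and Ago4, and leaves Ago2 as the intact Argonaute gene. The allele was made in 129-derived embryonic stem cells and is carried on a C57BL/6J background in every cell of the animal, germ cells and somatic testis cells alike. The mice of all 6 groups were 10 to 15 weeks old, no treatment is given for them, and each cell fraction came from the testes of 2 to 5 mice pooled. Fractions above 70% purity were used, so that each library also holds RNA of other cells. The comparison of genotypes asks whether loss of the 3 Argonautes that carry miRNAs beside AGO2 goes with changed miRNA levels in these cells.

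A miRNA is cut from a hairpin RNA, loaded onto an Argonaute protein and pairs with target mRNAs mainly through its seed, bases 2 to 8 from the 5′ end. miR-10 genes lie inside the Hox clusters, whereas miR-99 or miR-100 genes lie with a let-7 gene and a miR-125 gene in clusters that are conserved across animals. miR-125 is the vertebrate counterpart of lin-4, the first miRNA described, and, like let-7, it represses Lin28.

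The mature sequences show what sets the members apart and which of them can be confused in counting, and are given 5′ to 3′ with the seed in capitals, from RefSeq on GRCm38.p6. The miR-351-5p sequence is shown because it shares the miR-125 seed.
miR-10a-5p: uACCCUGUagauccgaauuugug
miR-10b-5p: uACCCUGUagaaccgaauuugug
miR-99a-5p: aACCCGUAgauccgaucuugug
miR-99b-5p: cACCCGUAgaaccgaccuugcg
miR-100-5p: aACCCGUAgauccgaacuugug
miR-125a-5p: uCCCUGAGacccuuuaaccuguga
miR-125b-5p: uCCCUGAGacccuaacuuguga
miR-351-5p: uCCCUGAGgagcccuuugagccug

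Positions are counted from 1 at the 5′ end, with the base of the first-named miRNA before the position and that of the second after it. miR-10a-5p and miR-10b-5p differed by U12A alone. miR-99a-5p and miR-100-5p differed by U16A alone, whereas miR-99a-5p and miR-99b-5p differed by A1C, U11A, U16C and U21C. Since how many mismatches were allowed in counting is not given in the sources used here, reads may be shared between miR-10a-5p and miR-10b-5p and between miR-99a-5p and miR-100-5p, and their separate values carry that uncertainty. miR-125a-5p and miR-125b-5p stood 3 edits apart over their whole length. Of the 1679 miRNAs of the table with a sequence, no other had the seed ACCCUGU of miR-10 or the seed ACCCGUA of miR-99/100. The miR-125 seed CCCUGAG was also held by miR-351-5p, miR-6367 and miR-6394, and the last 2 had no count in any of the 24 libraries.

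The members come from 8 hairpin genes, all on the + strand of GRCm38.p6. Mir10a lies at chr11:96317165-96317274, outside annotated genes, between Hoxb5 and Hoxb4. Mir10b lies at chr2:74726070-74726137 in introns of Hoxd3 and Hoxd4. The other 6 form 3 clusters with let-7 genes. On chromosome 16, Mir99a (chr16:77598936-77599000), Mirlet7c-1 and Mir125b-2 (chr16:77646273-77646343) span 47.4 kb in introns of the non-coding gene Mir99ahg. On chromosome 9, Mir100 (chr9:41531425-41531504), Mirlet7a-2 and Mir125b-1 (chr9:41581926-41582002) span 50.6 kb in introns of the non-coding gene 3110039I08Rik. On chromosome 17, Mir99b (chr17:17830188-17830257), Mirlet7e and Mir125a (chr17:17830812-17830879) span 0.692 kb within Spaca6, where Mir99b lies in an intron and Mir125a overlaps an exon. miR-125b-5p is the same sequence from the hairpins of chromosomes 9 and 16, and its counts join both.

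Library totals ran from 182904 to 1072637 counts, and from 182904 to 369491 in the Ago413-/- SP libraries, the shallowest group. All 7 members passed the filter on low values (10 counts or more in 3 or more libraries) in each fit, and the lowest member count in a library was 218, of miR-10b-5p. A pair of SP libraries stood apart from their groups. Ago413-/- SP replicate 2 had the lowest summed level of 3 germ cell miRNAs (miR-34c-5p, miR-449a-5p and miR-34b-5p), which meiotic cells express, 18752 CPM (counts scaled to the same total in every library) where the median of its group was 60171 CPM. Ago413+/- SP replicate 4 had the lowest such sum of its own group, 36488 CPM, where the highest of the group was 137646 CPM. Both libraries also held the highest miR-10b-5p, miR-99a-5p, miR-99b-5p, miR-100-5p, miR-125a-5p and miR-125b-5p of their groups. The SP comparisons, the let-7 values and the correlations are also given without these libraries. The germ cell list was detected in all 24 libraries, between 18752 and 137646 CPM in SP and between 59253 and 186145 CPM in RS, and does not tell the cell types apart. miR-202-5p and miR-202-3p, listed from general knowledge as markers of gonadal somatic cells, were also found in every library, with a sum between 2499.8 and 15979 CPM. Which cells made them here was not tested. Their arms did not move together in SP, where the means in Ago413+/+ and Ago413-/- were 4743 and 4083 CPM for miR-202-5p. For miR-202-3p these means were 320 and 890 CPM. The labels do not say whether the 4 libraries of a group came from separate pools of mice, so that p-values measure the spread between these libraries, which may be technical.

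The 7 members together took 1.82% to 9.13% of the counts of a library. Levels are given as CPM scaled by TMM over the 24 libraries, in the order of replicates 1 to 4, and groups as mean ± SD with n = 4. Levels of different miRNAs also reflect how well their ends were ligated, which the counts do not correct.

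miR-99a-5p was the member with the most counts in 24 of 24 libraries, and ranked 10 of all miRNAs by mean level in Ago413+/+ SP, 7 in Ago413+/+ RS and 5 in Ago413-/- RS. In SP, miR-99a-5p measured 20312, 32704, 22919 and 15029 CPM in Ago413+/+, 19664, 11657, 8038 and 32664 CPM in Ago413+/- and 33214, 38636, 27144 and 18051 CPM in Ago413-/-. In RS, miR-99a-5p measured 41919.5, 43042, 21442 and 23801 CPM in Ago413+/+, 14291, 26955, 22239 and 24424 CPM in Ago413+/- and 51154, 35491, 69913 and 35238 CPM in Ago413-/-. The 3 genotypes overlapped in SP, whereas in RS every Ago413-/- library lay above every Ago413+/- library. The Ago413+/+ libraries overlapped with both. The group means in RS were 32551 ± 11515 CPM in Ago413+/+, 21977 ± 5474 CPM in Ago413+/- and 47949 ± 16426 CPM in Ago413-/-.

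miR-100-5p, which has the same seed as miR-99a-5p and comes from the cluster on chromosome 9, was the next in level. In SP, miR-100-5p measured 6784, 11068, 7927 and 4832 CPM in Ago413+/+, 6818, 4272, 2649.7 and 10527 CPM in Ago413+/- and 6969, 8719, 7177 and 4919.5 CPM in Ago413-/-. In RS, miR-100-5p measured 11303, 15322, 7537 and 8892 CPM in Ago413+/+, 3512, 10049, 7805 and 9047 CPM in Ago413+/- and 14649, 10251, 18946 and 10316 CPM in Ago413-/-. The RS genotypes ranked as they did for miR-99a-5p, again with no overlap between Ago413-/- and Ago413+/-.

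miR-99b-5p, the product of the compact cluster on chromosome 17, was the least abundant of the 3 with this seed. In SP, miR-99b-5p measured 2701, 3535, 3286 and 1674 CPM in Ago413+/+, 2079.8, 1566, 1033 and 4474 CPM in Ago413+/- and 2521, 6346, 2821 and 1723 CPM in Ago413-/-. In RS, miR-99b-5p measured 5574, 7176, 2957 and 2889.7 CPM in Ago413+/+, 967, 3379, 2950.2 and 3261 CPM in Ago413+/- and 4968, 3246, 6519 and 3273 CPM in Ago413-/-. All 3 genotypes overlapped in each cell type, and Ago413+/- RS replicate 1 was the lowest library of the 24.

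The miR-10 pair split by variability. In SP, miR-10b-5p measured 2865, 3323, 1326 and 1769 CPM in Ago413+/+, 961, 672, 1061 and 4608 CPM in Ago413+/- and 2318, 6873, 3121 and 1049 CPM in Ago413-/-. In RS, miR-10b-5p measured 5543, 5066, 1436 and 2681 CPM in Ago413+/+, 1198, 960.0, 1549.8 and 3440.4 CPM in Ago413+/- and 5732, 5063, 4384 and 2342 CPM in Ago413-/-. Single libraries set several of these groups apart, above all Ago413+/- SP replicate 4 and Ago413-/- SP replicate 2. In SP, miR-10a-5p measured 1911, 1258, 1707 and 1147 CPM in Ago413+/+, 789, 771, 1400.1 and 2661 CPM in Ago413+/- and 1029, 1553, 3555 and 1511 CPM in Ago413-/-. In RS, miR-10a-5p measured 1090.0, 1425, 1649.6 and 1416 CPM in Ago413+/+, 1194, 990.1, 1367 and 1085 CPM in Ago413+/- and 1445, 1714, 1279 and 983 CPM in Ago413-/-. The 12 RS libraries thus stayed within 983 to 1714 CPM of miR-10a-5p, while those of miR-10b-5p spread from 960.0 to 5732 CPM.

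miR-125b-5p, the product of both long clusters, was the third member by level. In SP, miR-125b-5p measured 4662, 5765, 4899 and 2265 CPM in Ago413+/+, 3409, 2742, 1981 and 7036 CPM in Ago413+/- and 4956, 13645, 5086 and 2989 CPM in Ago413-/-. In RS, miR-125b-5p measured 7102, 9816, 4258 and 4068 CPM in Ago413+/+, 1686, 5494, 4447 and 5064 CPM in Ago413+/- and 8426, 4475, 8371 and 5915 CPM in Ago413-/-. Ago413-/- SP replicate 2 held the highest level of any library. miR-125a-5p, from the cluster on chromosome 17, was lower. In SP, miR-125a-5p measured 1562, 1955, 1900.2 and 921 CPM in Ago413+/+, 1095, 952, 788 and 2285 CPM in Ago413+/- and 1771, 3099.7, 2184 and 1169.7 CPM in Ago413-/-. In RS, miR-125a-5p measured 2773, 3318, 1782 and 1375 CPM in Ago413+/+, 436, 1771, 1590.3 and 1608 CPM in Ago413+/- and 2439.9, 1474, 2399.9 and 1822 CPM in Ago413-/-. The genotypes overlapped for both miR-125 members in both cell types.

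**Figure D1:**
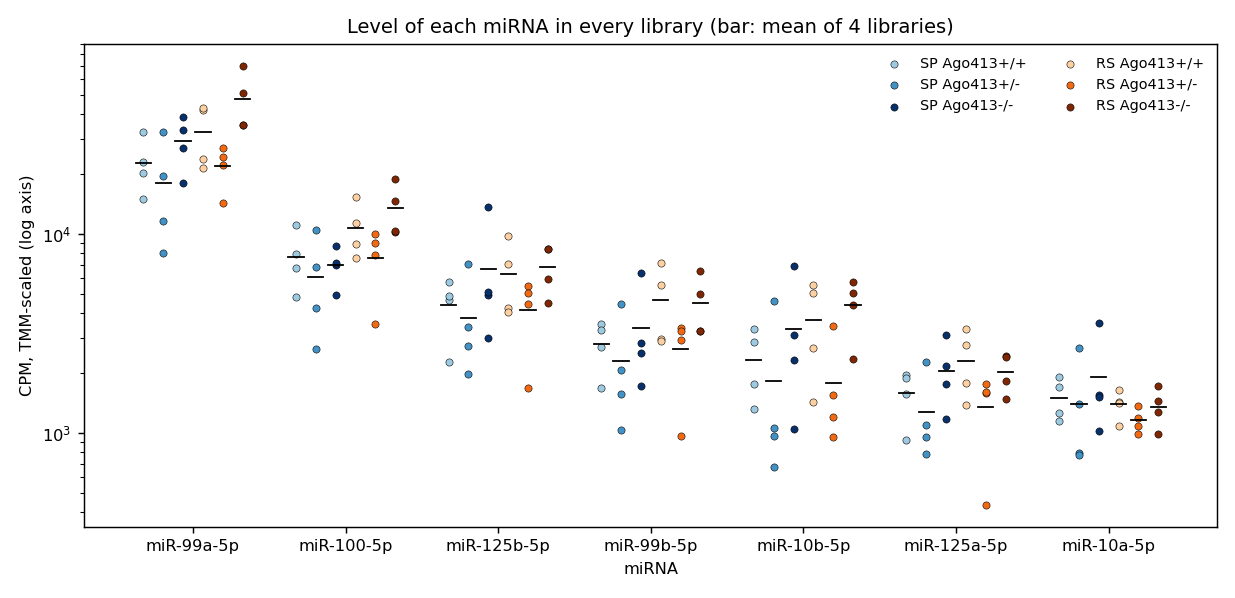
Level of each member in each of the 24 libraries (CPM scaled by TMM, log axis), with 1 point per library, colours for cell type and genotype, and a bar at the mean of 4 libraries. miR-99a-5p lay above miR-100-5p in 24 of 24 libraries, and the 4 points of a group lay far apart for miR-10b-5p in Ago413+/- and Ago413-/- SP and close together for miR-10a-5p in RS.

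By group mean, the order in all 6 groups was miR-99a-5p, miR-100-5p, miR-125b-5p, miR-99b-5p and miR-10b-5p, followed by miR-125a-5p and miR-10a-5p. The last place was held by miR-10a-5p in all groups but Ago413+/- SP, where miR-125a-5p held it. miR-100-5p exceeded miR-125b-5p in 4 of 4 libraries of each group except Ago413-/- SP, where it did in 3 of 4. Lower in the order, miR-99b-5p exceeded miR-10b-5p in 4 of 4 Ago413+/+ RS libraries and in 2 of 4 in each of the other groups. miR-125a-5p exceeded miR-10a-5p in 3 of 4 libraries of each RS group and in 2 of 4 of each SP group, so that these neighbours were not separated in any group.

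Loss of the Argonautes was compared first with Ago413+/+. In SP, 0 of the 7 members were called changed in Ago413-/- by edgeR's quasi-likelihood test, where a call needs an adjusted p (Benjamini-Hochberg over all miRNAs tested) under 0.05 together with a log2 fold change of 1 or more in size. Of all 404 miRNAs tested, 4.46% were called, and 0 members passed an unadjusted p of 0.05 or a call by DESeq2. The log2 fold changes of the members ran from -0.15 for miR-100-5p to 0.61 for miR-125b-5p, with a median of 0.36 beside -0.05 over all miRNAs. The 95% confidence intervals of -0.49 to 1.22 for miR-99a-5p and -0.43 to 1.64 for miR-125b-5p both hold a log2 fold change of 1. Scaling by library totals alone moved the median of all miRNAs to -0.24 and that of the members to 0.12. The members' median rested on Ago413-/- replicate 2. Without it the median was -0.03 beside 0.00 over all miRNAs, with miR-125b-5p at -0.03 and miR-99b-5p at -0.27.

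In RS, 0 of the 7 members were called in Ago413-/- against Ago413+/+, where 16.2% of the 426 miRNAs tested were. The log2 fold changes ran from -0.04 for miR-125a-5p to 0.70 for miR-99a-5p, with a median of 0.24 beside 0.13 over all miRNAs. The members' median was -0.02 without Ago413+/+ replicate 4, 0.03 without Ago413-/- replicate 1 and 0.38 without Ago413+/+ replicate 2. The median over all miRNAs also moved in these fits, from 0.13 to -0.04, -0.01 and -0.01 in the same order. By edgeR, miR-99a-5p was the 1 member with an unadjusted p under 0.05 (log2 fold change 0.70, SE 0.30, adjusted p = 0.0968), and DESeq2 called 0 members. Scaling by library totals alone, which moved the median of all miRNAs from 0.13 to -0.09, put miR-10a-5p, miR-99b-5p and miR-125b-5p below 0.

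Libraries of Ago413+/+ and Ago413-/- carry numbers up to 60 for replicates 1 and 2 and from 71 for replicates 3 and 4. Ago413+/- replicate 4 lies between them, numbered 65 in RS and 66 in SP, and this split is not known to be a batch. Ago413+/- replicates 1, 2 and 3 are numbered 1, 17 and 23 in RS and 2, 18 and 24 in SP. These lie below every library of the other genotypes. Comparisons with Ago413+/- therefore also set mostly lower against higher library numbers, and the part of this in their differences was not tested. In RS, the mean log2 difference of miR-99a-5p between Ago413-/- and Ago413+/+ was 0.00 in replicates 1 and 2 and 1.14 in replicates 3 and 4. For miR-100-5p it was -0.10 and 0.77, for miR-99b-5p -0.66 and 0.66, for miR-125b-5p -0.44 and 0.76, and for miR-125a-5p -0.68 and 0.42. For miR-10b-5p it was 0.02 and 0.71, while miR-10a-5p went the other way (0.34 and -0.45). In SP the values were 0.48 and 0.25 for miR-99a-5p, 0.37 and 0.24 for miR-10b-5p, 0.42 and 0.27 for miR-125a-5p, 0.67 and 0.23 for miR-125b-5p and -0.15 and -0.06 for miR-100-5p. There miR-99b-5p (0.37 and -0.09) and miR-10a-5p (-0.29 and 0.73) turned sign. What the numbers stand for is not stated, and whether the genotype difference differed between replicates 1 and 2 and replicates 3 and 4 was not tested.

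Summing counts over each seed, as a family acts on the same sites, changed no call. The miR-10, miR-99/100 and miR-125 families gave 0 of 3 calls in either cell type by edgeR or DESeq2, with log2 fold changes by edgeR of 0.32, 0.09 and 0.35 in SP and 0.06, 0.37 and -0.08 in RS. The fits on sums set their own scaling, so that these values are not on the scale of the single miRNAs. In RS the miR-10 sum thus lay below both of its members, miR-10a-5p (0.11) and miR-10b-5p (0.37). Of all seed families tested, 6.87% were called in SP by edgeR and 15.5% by DESeq2, and in RS 15.9% and 16.4%. Without Ago413-/- replicate 2 of SP the 3 SP values were 0.08, 0.03 and -0.05.

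In Ago413+/- against Ago413+/+, 0 of 7 members were called in SP, where 0% of all miRNAs were called by edgeR, with 13 of 404 (0 members) at an unadjusted p under 0.05 and 0 members by DESeq2. The members ran from -0.33 to -0.08 on the log2 scale, and without Ago413+/- replicate 4 from -1.28 (miR-10b-5p) to -0.51 (miR-10a-5p), with 0 called by edgeR. In RS, 0 of 7 were called as well, with 0% of all miRNAs called by edgeR, 68 of 426 (1 member) at an unadjusted p under 0.05 and 0 members by DESeq2. The members ran from -1.0 for miR-10b-5p (edgeR, SE 0.45, adjusted p = 0.310) to -0.18 for miR-10a-5p, and their median of -0.55 stood beside 0.00 over all miRNAs.

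Because the Ago413+/- and Ago413-/- medians lay on opposite sides of Ago413+/+, these genotypes were also set against each other, a comparison added after the data were seen that shares its libraries with those above. In SP, 0 of 7 members were called in Ago413-/- against Ago413+/- by edgeR, where 2.23% of all miRNAs were, 0 at an unadjusted p under 0.05 and 0 by DESeq2. Their log2 fold changes ran from 0.15 to 0.85, and without Ago413-/- replicate 2 from -0.03 to 0.47. In RS, 2 of 7 were called, both higher in Ago413-/-, where 12.4% of all 426 miRNAs were called. miR-99a-5p was higher by 1.21 on the log2 scale (edgeR, SE 0.30, 95% confidence interval 0.58 to 1.85, adjusted p = 0.0124), and 4 of 4 Ago413-/- libraries lay above all of Ago413+/-. miR-10b-5p was higher by 1.37 (edgeR, SE 0.45, interval 0.42 to 2.32, adjusted p = 0.0434), with overlapping libraries. DESeq2 called the same 2 members. miR-100-5p did not pass (edgeR, 0.92, adjusted p = 0.0515) although its groups did not overlap. Groups without overlap were seen for these 2 of 7 members, miR-99a-5p and miR-100-5p, and for 23.2% of all miRNAs tested. miR-99b-5p measured 0.86, miR-125b-5p 0.79, miR-125a-5p 0.68 and miR-10a-5p 0.30, all above 0 and none called by edgeR. The median of the 7 was 0.86 beside 0.13 over all miRNAs. Both calls changed when single libraries were left out. Without Ago413-/- replicate 3, edgeR gave miR-99a-5p 0.96 with an adjusted p of 0.0548, and 0 members were called. Scaling by library totals alone, which moved the median of all miRNAs from 0.13 to -0.10, also left 0 calls, with miR-99a-5p at 0.93. The miR-10b-5p call was lost when any of Ago413-/- replicates 1, 2 and 3 or Ago413+/- replicates 1, 2 and 3 was left out, with log2 fold changes of 1.14 to 1.36 in these fits. In 2 of them miR-100-5p was called instead. These were the fits without Ago413-/- replicate 2 (edgeR, 1.04, adjusted p = 0.0444) and without Ago413+/- replicate 2 (edgeR, 1.07, adjusted p = 0.0464). Without Ago413+/- replicate 4 of SP, miR-10b-5p was called in SP also (edgeR, 1.84, adjusted p = 0.0370).

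**Figure D2:**
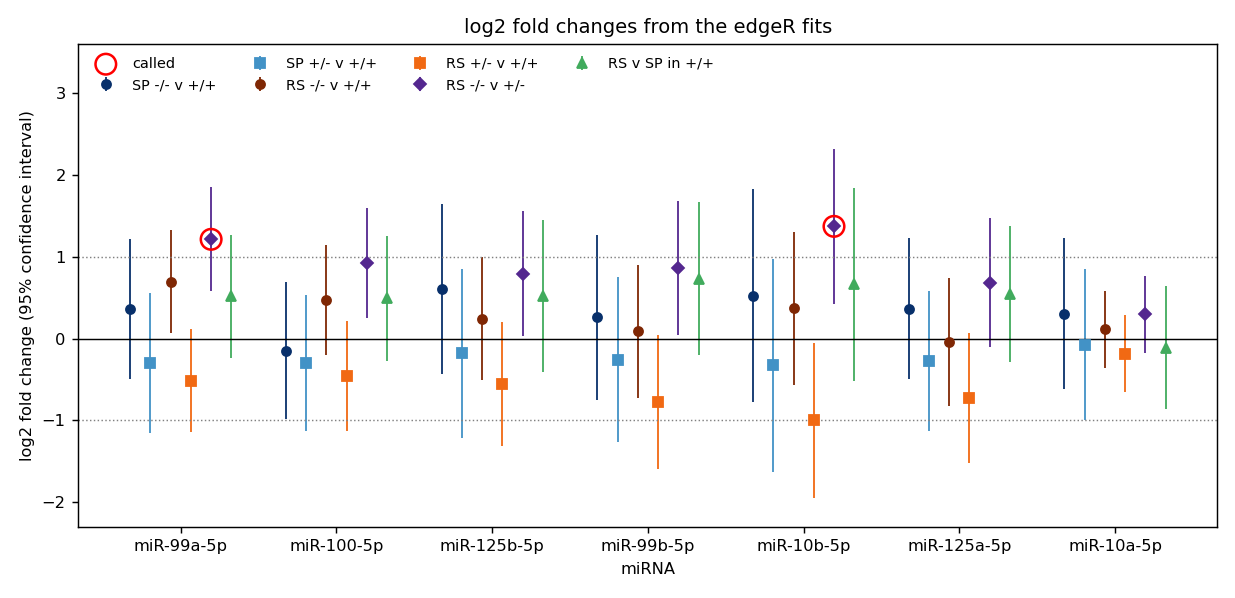
log2 fold changes of the 7 members from edgeR with 95% confidence intervals, for 6 comparisons, where +/+, +/- and -/- stand for the Ago413 genotypes, dotted lines mark an absolute log2 fold change of 1 and a red ring marks a call. The rings sit on miR-99a-5p (1.21) and miR-10b-5p (1.37) in RS of Ago413-/- against Ago413+/-, and the intervals of all members cross 0 in both SP comparisons.

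Some miRNAs listed as markers of somatic cells also differed between these RS groups. miR-199a-3p, miR-199a-5p and miR-214-3p, products of fibroblasts and mesenchyme, summed to 3405 to 5352 CPM in Ago413-/- RS, 1728 to 3551 CPM in Ago413+/+ RS and 1341 to 2877 CPM in Ago413+/- RS. The sum of both miR-202 arms ran from 9034 to 15979 CPM in Ago413-/- RS, from 2499.8 to 8176 CPM in Ago413+/+ RS and from 2799.5 to 8405 CPM in Ago413+/- RS. Neither list overlapped between Ago413-/- and Ago413+/-. By edgeR in that comparison, 1 of 3 mesenchymal miRNAs (miR-199a-3p, log2 fold change 1.20), 1 of 2 of miR-202 (miR-202-5p, 1.28) and 1 of 2 endothelial miRNAs (miR-126a-3p, 2.01) were called higher, while 0 of 2 peritubular and 0 of 2 tested blood miRNAs were. The endothelial sum was 1951 to 5858 CPM in Ago413-/- RS and 858 to 1160 CPM in Ago413+/- RS. The peritubular pair, miR-143-3p and miR-145a-5p, overlapped, at 2031 to 3444 CPM and 1316 to 5316 CPM. The blood list overlapped too, at 103 to 4813 CPM and 179 to 1155 CPM, and the last of its 3 miRNAs, miR-144-3p, was near 0. Against Ago413+/+ in RS, where 0 of 7 members were called, edgeR called miR-451a (3.26), miR-486a-5p (2.11), miR-126a-3p (1.63), miR-202-5p (1.53) and miR-199a-3p (1.14) higher in Ago413-/-. The peritubular miR-143-3p (-0.14) and miR-145a-5p (-1.74) lay on the other side, neither called. The blood miRNAs were uneven over Ago413-/- RS replicates 1 to 4. miR-451a had 268, 29, 430 and 2024 counts there, and miR-486a-5p had 37, 8, 44 and 204. In Ago413+/- against Ago413+/+, where the members' median was -0.55, miR-199a-3p measured -0.06 and miR-202-5p 0.25, neither called. The other mesenchymal and miR-202 miRNAs had lower means in Ago413+/- than in Ago413+/+ RS. These means were 249 and 421 CPM for miR-202-3p, 48.1 and 74.6 CPM for miR-214-3p, and 281 and 294 CPM for miR-199a-5p. The endothelial miR-126a-3p measured -0.38 in that comparison, and none of these was called. The germ cell list measured 70397 to 133847 CPM in Ago413-/- RS and 86584 to 186145 CPM in Ago413+/- RS.

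Each sum weighs its miRNAs by level. By group mean, miR-199a-3p made up most of the mesenchymal sum, miR-202-5p of the miR-202 sum and miR-34c-5p of the germ cell sum. In Ago413-/- RS, miR-199a-3p had a mean of 4143 CPM beside 380 for miR-199a-5p and 79.7 for miR-214-3p. There miR-202-5p had 11617.5 CPM beside 487 for miR-202-3p. Across the 12 RS libraries, miR-99a-5p correlated with the mesenchymal sum at r = 0.88 and with the miR-202 sum at r = 0.80, and miR-100-5p with the mesenchymal sum at r = 0.85. Over all 24 libraries the same 3 values were 0.73, 0.62 and 0.76, and over the 12 SP libraries 0.49, 0.33 and 0.58. Without both libraries that stood apart, the SP values were 0.85, 0.58 and 0.84 over 10 libraries. Of those left out, Ago413-/- SP replicate 2 ran opposite to the correlation. It held the highest miR-99a-5p of its group, 38636 CPM, with the lowest mesenchymal sum of its group, 1167 CPM. The higher values thus hold only for the libraries that were kept. miR-10a-5p stood apart, at 0.12 with the mesenchymal sum over 24 libraries. In SP the germ cell sum correlated negatively with the members, from r = -0.58 for miR-100-5p to -0.86 for miR-125b-5p over 12 libraries, with -0.46 for miR-10a-5p. Over the 10 SP libraries without those that stood apart, it ran from -0.49 for miR-100-5p to -0.75 for miR-125a-5p. These are descriptions over libraries that share groups, depth and scaling, and the part of other cells in the members' differences was not tested. In pooled fractions, fewer cells of a type and less RNA per cell cannot be told apart.

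**Figure D3:**
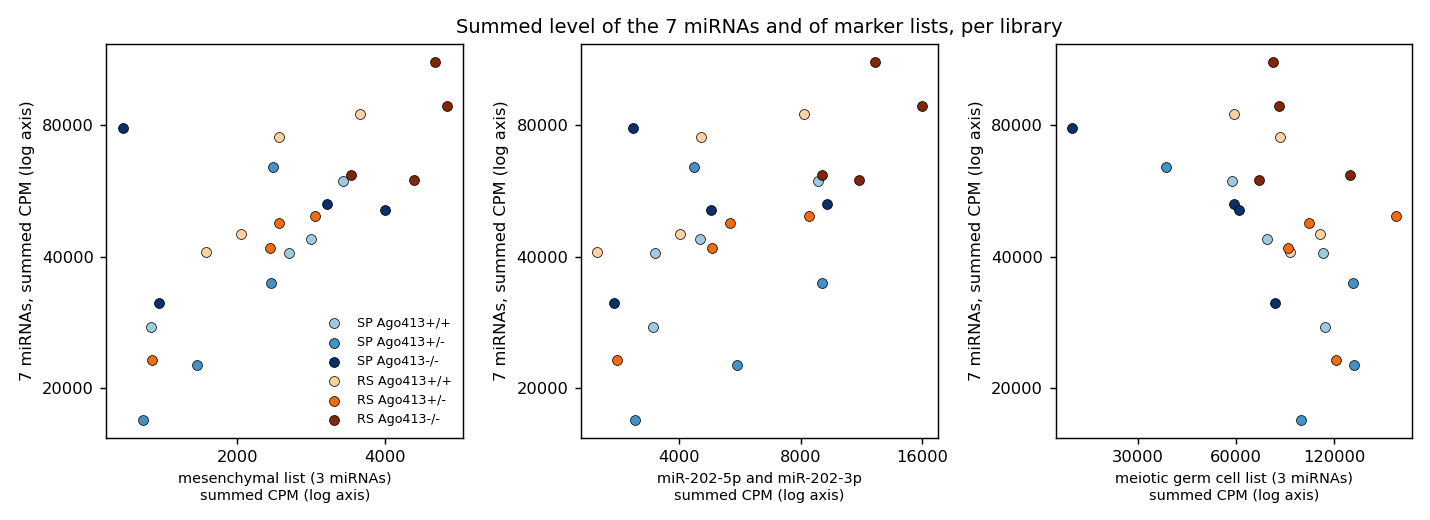
Summed level of the 7 members against the summed level of a mesenchymal list, of both miR-202 arms and of a meiotic germ cell list, with 1 point per library and log axes in CPM. In RS (orange to brown) the 4 Ago413-/- libraries had the highest miR-202 sums, 9034 to 15979 CPM, and the SP library at the lower edge of the germ cell panel is Ago413-/- replicate 2 with 18752 CPM.

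Between the cell types, 0 of 7 members were called in RS against SP of Ago413+/+ by edgeR, where 0% of 450 miRNAs were called, with 10 at an unadjusted p under 0.05 (0 members) and 0 members by DESeq2. The log2 fold changes ran from -0.11 for miR-10a-5p to 0.73 for miR-99b-5p, with 6 of 7 above 0 and a median of 0.52 beside 0.02 over all miRNAs. Within Ago413+/-, 0 of 7 were called by edgeR or DESeq2, with 0% of all miRNAs called, 15 at an unadjusted p under 0.05 (0 members) and member values from -0.28 to 0.33. Within Ago413-/-, 0 of 7 were called, beside 4.89% of all miRNAs. By edgeR, miR-100-5p there reached 0.96 (SE 0.37, adjusted p = 0.0999), and 4 of 4 RS libraries lay above all 4 SP libraries. It was the 1 member of 7 without overlap, beside 12.2% of all miRNAs. The interaction of Ago413-/- and cell type, which tests whether the Ago413-/- difference from Ago413+/+ was the same in SP and RS, was called for 0 of 7 members by edgeR and for 0% of all miRNAs, with 55 of 450 and 0 members at an unadjusted p under 0.05 and 0 members by DESeq2. The interaction estimates ran from -0.56 for miR-125a-5p to 0.47 for miR-100-5p on the log2 scale.

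Ratios of counts within a library need no scaling between libraries, and show whether relatives kept their proportions. In Ago413+/+ SP, the log2 ratio of miR-100-5p to miR-99a-5p was -1.58, -1.56, -1.53 and -1.64 in replicates 1 to 4, an SD of 0.04, although miR-99a-5p itself ranged from 15029 to 32704 CPM. In Ago413-/- SP it was -2.25, -2.15, -1.92 and -1.88, a mean lower by 0.47 with no overlap (exact two-sided permutation test, p = 0.0286, the smallest that 4 against 4 libraries can give). In Ago413+/+ and Ago413-/- RS the means were -1.58 ± 0.21 and -1.81 ± 0.05 (SD, n = 4), which overlapped.

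In RS, 2 of the other ratios within a seed had groups without overlap. The log2 ratio of miR-99b-5p to miR-99a-5p was -2.91, -2.58, -2.86 and -3.04 in Ago413+/+ RS and -3.36, -3.45, -3.42 and -3.43 in Ago413-/- RS, with no overlap (exact permutation p = 0.0286). The log2 ratio of miR-125b-5p to miR-125a-5p was 1.36, 1.56, 1.26 and 1.56 in Ago413+/+ RS and 1.79, 1.60, 1.80 and 1.70 in Ago413-/- RS, again with no overlap (exact permutation p = 0.0286). The miR-10b-5p to miR-10a-5p ratio overlapped in every comparison, from -0.20 to 2.35 in Ago413+/+ RS and from 1.25 to 1.99 in Ago413-/- RS. With 9 ratios in 3 comparisons, 27 tests were made, and none passed the correction, the lowest adjusted p of the exact permutation tests being 0.154. Since no exact p can be under 0.0286 here, a few ratios without overlap cannot pass this correction. That none passed therefore does not show that the ratios were unchanged.

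Cluster partners gave a further view, since miRNAs of 1 cluster can be cut from 1 transcript. miR-99a-5p to let-7c-5p was 1.76, 1.59, 1.76 and 1.68 on the log2 scale in Ago413+/+ SP and 1.47, -0.56, 1.45 and 1.09 in Ago413-/- SP, where replicate 2 was the low value and the groups did not overlap without it either. miR-99b-5p to let-7e-5p was 2.95 ± 0.28 in Ago413+/+ SP and 2.04 ± 0.39 in Ago413-/- SP (SD, n = 4), with no overlap. Both had an exact permutation p of 0.0286 and an adjusted p of 0.154. The third cluster ratio, miR-100-5p to let-7a-5p, overlapped in SP, at -1.47 ± 0.47 in Ago413+/+ and -2.64 ± 0.55 in Ago413-/- (exact permutation p = 0.0571, adjusted p = 0.257). In RS all 3 cluster ratios overlapped, and Ago413-/- minus Ago413+/+ was 0.24 for miR-99a-5p to let-7c-5p, 0.44 for miR-100-5p to let-7a-5p and -0.35 for miR-99b-5p to let-7e-5p. let-7a-5p and let-7c-5p are also made from other hairpins, so that these ratios do not measure a single transcript. Since the mismatches allowed in counting are not given, reads may also be shared between these let-7 miRNAs, including let-7e-5p. Their sequences were not compared here. The let-7 miRNAs themselves were 0 of 3 called in Ago413-/- SP against Ago413+/+, at log2 fold changes of 1.17 (let-7a-5p), 1.64 (let-7c-5p) and 1.33 (let-7e-5p) with adjusted p-values from edgeR of 0.0959, 0.126 and 0.177. Without Ago413-/- replicate 2 they were 0.73, 0.50 and 0.45, with 0 called by edgeR. Against Ago413+/- in RS, let-7c-5p (1.21) and let-7e-5p (1.23) were called higher by edgeR, with adjusted p-values of 0.00817 and 0.0124, and let-7a-5p (0.43) was not.

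**Figure D4:**
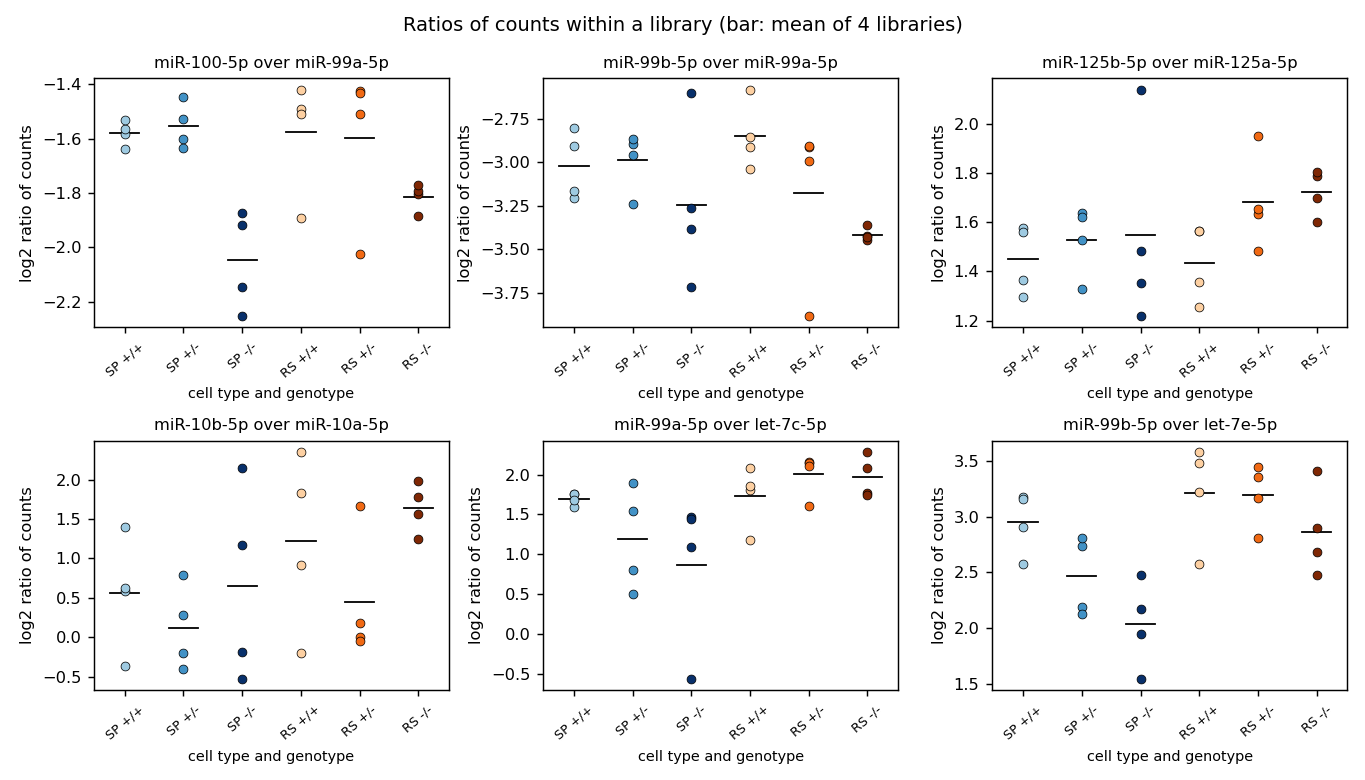
log2 ratios of counts within each library for 6 pairs, by cell type and genotype, with 1 point per library and a bar at the mean of 4. miR-100-5p over miR-99a-5p lies lower in all 4 Ago413-/- SP libraries (mean -2.05) than in Ago413+/+ SP (mean -1.58), and miR-99b-5p over miR-99a-5p is tightly grouped in Ago413-/- RS (SD 0.04).

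Levels moved together across the 24 libraries for 5 members, miR-99a-5p, miR-99b-5p, miR-100-5p, miR-125a-5p and miR-125b-5p, with pairwise Pearson r of log2(CPM + 0.5) from 0.82 to 0.97. The closest pair was miR-99b-5p and miR-125b-5p, which share neither seed nor cluster (r = 0.97, and 0.98 for deviations from group means). Without the 2 libraries that stood apart, the 5 gave 0.82 to 0.97 over 22 libraries. The cluster partners miR-99b-5p and miR-125a-5p gave 0.95. miR-10b-5p was less close to these 5 (0.71 to 0.79), and miR-10a-5p was apart from all (0.11 to 0.40), also from miR-10b-5p (0.40), from which it differs by 1 base. Among the other 189 miRNAs with at least 10 counts in every library, the most alike to miR-125b-5p and miR-125a-5p was miR-204-5p (r = 0.95 and 0.93). miR-351-5p, which shares the miR-125 seed, was the most alike to miR-99b-5p (0.91) and miR-100-5p (0.88). For miR-99a-5p it was miR-1981-5p (0.83), for miR-10b-5p miR-760-3p (0.77), and for miR-10a-5p miR-28a-3p (0.79) and miR-200c-3p (0.73). The correlations are descriptions over 24 libraries that share groups and scaling, and reads shared between near-identical sequences would add to them.

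**Figure D5:**
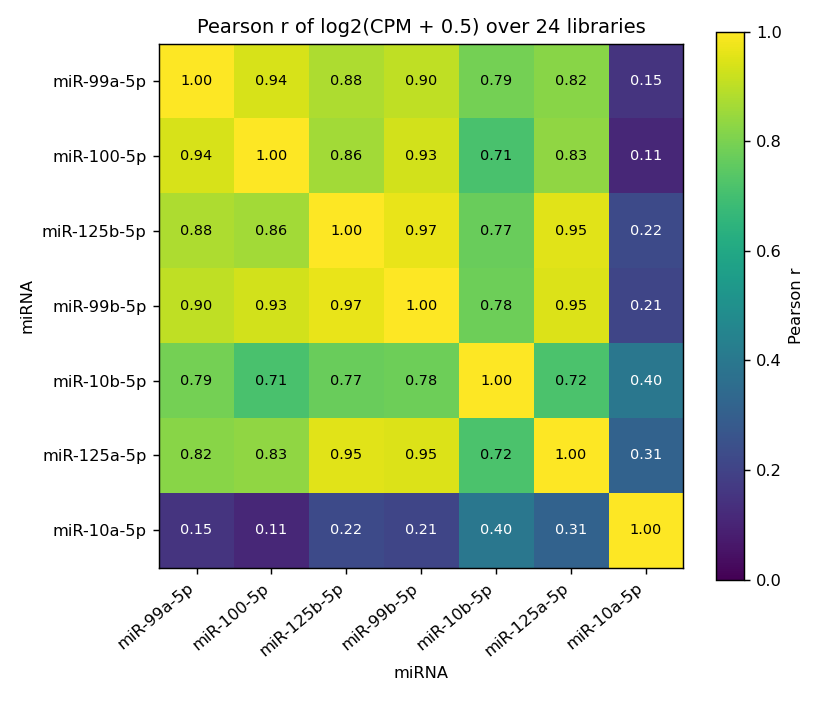
Pearson r between the members over the 24 libraries, from log2 CPM with a pseudocount of 0.5. The block of high values holds miR-99a-5p, miR-100-5p, miR-125b-5p, miR-99b-5p and miR-125a-5p (0.82 to 0.97), and the row of miR-10a-5p stays at or under 0.40.

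The opposite (3p) arms of the hairpins show that the 5p arm was the major product throughout. In 24 of 24 libraries the 5p arm had more counts than the 3p arm for each of Mir10a, Mir10b, Mir99a, Mir99b, Mir100 and Mir125a. The 3p share over all libraries was 2.61% for Mir99b, 0.778% for Mir10a, 0.566% for Mir10b and 0.550% for Mir125a. It was far smaller for Mir100 (11 counts beside 118616) and Mir99a (5 counts beside 377134). The 3p arms separate the pair of miR-125b hairpins, whose 5p products cannot be told apart: miR-125b-1-3p, from chromosome 9, had 1093 counts and miR-125b-2-3p, from chromosome 16, had 410, so that the first made up 72.7% of both. It was the larger in 23 of 24 libraries. Against Ago413+/+, 0 of 5 tested 3p arms were called in Ago413-/- of either cell type by edgeR. Against Ago413+/- in RS, miR-10b-3p was called higher by edgeR (1.56, adjusted p = 0.0482), the same side as miR-10b-5p. It had only 3, 2, 3 and 15 counts in Ago413+/- RS replicates 1 to 4. In SP the arms lay on opposite sides, with no call. Ago413-/- against Ago413+/+ gave -1.34 for miR-10b-3p and 0.52 for miR-10b-5p, and against Ago413+/- -1.16 and 0.85. miR-351-5p, at 37 to 657 counts a library, was not called in any comparison, with -0.35 in SP and -0.19 in RS for Ago413-/- against Ago413+/+.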

How the data were processed

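Small RNA was measured in 24 libraries (SP and RS, 3 genotypes, 4 libraries each), whose groups and replicate numbers were taken from their titles. TrimGalore (trimming) and the miRDeep2 quantifier (counting against miRBase) were run by the authors, who deposited raw counts, not normalized, for 1978 mature miRNAs. The mismatches allowed in counting are not given in the sources used here. The deposited counts were tested with edgeR 4.0.16 (R 4.3.3, limma 3.58.1): a miRNA had to reach 10 counts in 3 or more libraries, TMM set the scaling, and quasi-likelihood fits without covariates covered the 12 libraries of a cell type for genotypes and all 24 for cell types and the interaction, with Benjamini-Hochberg adjustment over all miRNAs. Called miRNAs had an adjusted p under 0.05 and a log2 fold change of 1 or more in size; for the interaction the adjusted p sufficed. The fit was checked on simulated counts. Ratios within a library used log2 of counts with a pseudocount of 0.5 and exact two-sided permutation tests (SciPy 1.17.1). The alternatives were DESeq2 1.42.0, other scalings, filters and thresholds, seed family sums, the 2 compared genotypes alone, a term for replicates 1 and 2 against 3 and 4, the replicate block and leaving out each library. A miRNA without counts may have up to 3, which is 2.80 to 16.4 CPM depending on the library total and covers counting error only, as does any share, since PCR reads without molecular identifiers are not independent molecules. The text names all 7 members, their 3p arms, the let-7 miRNAs of their clusters, other miRNAs with their seeds, the 3 miRNAs most correlated with a member (of which some are printed) and the marker lists. Members, lists and tests were chosen with earlier results of these data known, and the comparisons of Ago413-/- with Ago413+/- and of cell types within Ago413+/- and Ago413-/- were added after the data were seen.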

Additional observations from a re-analysis of the deposited data

Results flagged for a closer look

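In each of the 6 groups, the highest or lowest library of each of the 7 members was compared with the rest by Dixon's gap test at its 95% critical value for 4 values. Of 42 groups tested, 2 had a library beyond it, and chance gives about 2.1. miR-10b-5p measured 4608 CPM in Ago413+/- SP replicate 4, where the other libraries of the group measured 672 to 1061 CPM. The same library had the lowest germ cell sum of its group. miR-125a-5p measured 436 CPM in Ago413+/- RS replicate 1, where the others measured 1590.3 to 1771 CPM. That library was also the lowest of its group for miR-99a-5p, miR-99b-5p, miR-100-5p and miR-125b-5p. The part of other cells or of depth in these values was not tested.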

How the results depend on the processing

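Among the alternatives set at the start, the count of called members kept its value in 56 of 56 fits with 1 library left out and in 51 others. The exception was Ago413+/- against Ago413+/+ in RS without a filter on low counts, with 1 call (miR-10b-5p, -1.07). In the added comparison of Ago413-/- with Ago413+/- in RS, 2 calls became 1 with RLE scaling, 0 with library totals alone, 1 with at least 10 counts in every library and 1 with the replicate block, and lay between 0 and 2 when 1 library was left out. Without replicate 2 of either genotype, the 2 calls were miR-99a-5p and miR-100-5p. Ago413-/- against Ago413+/- in SP gave between 0 and 1 when 1 library was left out, the 1 being miR-10b-5p without Ago413+/- replicate 4. RS against SP in Ago413-/- gave 1 call, miR-100-5p, without a filter and 1 with at least 10 counts in every library. Same-numbered SP and RS libraries of a genotype carry adjacent library numbers, except Ago413+/+ replicate 2 (36 and 41). The labels do not say whether they share a pool of mice. Their deviations from group means correlated at r from -0.20 to 0.42. For same-numbered libraries of different genotypes r ran from -0.29 to 0.26. The main fits did not take the numbers as pairs. With the replicate block, no other count of called members changed.

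Signs turned for members without a call. For Ago413-/- against Ago413+/+ in RS, miR-10a-5p was -0.12 with library totals alone, -0.13 without a filter, -0.0052 with at least 10 counts in every library, -0.12 with the 2 genotypes alone and -0.13 when a term for replicates 1 and 2 against 3 and 4 was added to the 2 genotypes alone, and miR-99b-5p was -0.18, -0.14, -0.037, -0.13 and -0.012 in the same order. With library totals alone, miR-125b-5p was -0.0069 there and miR-99b-5p was -0.017 in SP. With the replicate block, miR-125a-5p was 0.00043 in RS and the interaction of miR-10b-5p was 0.063.

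When 1 library was left out, Ago413-/- against Ago413+/+ in SP ranged from -0.14 to 0.45 for miR-10a-5p, -0.12 to 0.75 for miR-10b-5p, -0.27 to 0.40 for miR-99b-5p, -0.40 to 0.019 for miR-100-5p and -0.033 to 0.77 for miR-125b-5p. In RS it ranged from -0.23 to 0.19 for miR-10a-5p, -0.21 to 0.23 for miR-99b-5p, -0.36 to 0.089 for miR-125a-5p and -0.046 to 0.41 for miR-125b-5p. Ago413+/- against Ago413+/+ in SP ranged from -0.51 to 0.015 for miR-10a-5p, -0.75 to 0.027 for miR-99b-5p and -0.60 to 0.078 for miR-125b-5p. RS against SP in Ago413+/+ ranged from -0.27 to 0.028 for miR-10a-5p. The interaction ranged from -0.60 to 0.10 for miR-10a-5p, -0.54 to 0.55 for miR-10b-5p, -0.47 to 0.40 for miR-99b-5p and -0.64 to 0.32 for miR-125b-5p. Ago413-/- against Ago413+/- in SP ranged from -0.083 to 0.87 for miR-10a-5p, -0.029 to 1.05 for miR-99b-5p and -0.094 to 0.54 for miR-100-5p. The cause was not tested.

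Counts over all miRNAs also moved. Ago413-/- against Ago413+/+ in SP gave 18 calls by edgeR, 61 by DESeq2, 55 without a filter, 14 with the 2 genotypes alone, 10 when that term was added to these and 11 without Ago413+/+ replicate 2 or replicate 3, and 69 calls in RS became 42 with at least 10 counts in every library. Ago413-/- against Ago413+/- gave 9 calls in SP by edgeR, 57 by DESeq2, 40 without a filter, 4 with the 2 genotypes alone, 5 without Ago413+/- replicate 1 and 57 without Ago413+/- replicate 4, and its 53 calls in RS became 35 with at least 10 counts in every library and 81 by the adjusted p alone, with 31 without Ago413-/- replicate 3, 35 without Ago413-/- replicate 1 and up to 65 when another library was left out. RS against SP in Ago413-/- gave 22 calls by edgeR, 49 by DESeq2, 43 without a filter, 1 without SP replicate 2, RS replicate 1 or RS replicate 3, and 62 without SP replicate 1. Of its other libraries, 3 gave 4 to 5 calls when left out and SP replicate 3 gave 15. The 0 calls of Ago413+/- against Ago413+/+ in RS became 6 by DESeq2 and 8 without a filter. Without a filter, the 0 calls became 4 for Ago413+/- against Ago413+/+ in SP, 4 and 5 for RS against SP in Ago413+/+ and Ago413+/-, and 8 for the interaction. The lowest member count in a library was 218, and the part of depth in these values was not tested.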
